A study of Mus musculus with 15 samples.

Results

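In the mouse melanoma line B16.F10, grown at 1% oxygen, doxorubicin changed the expression of many genes by a different amount when the cells had first received an siRNA against Hif1a. The comparison set the drug's effect after siRNA, Hif1a_siRNA_Dox over Hif1a_siRNA, against its effect in cells without siRNA, Dox over Control. The difference of the effects is the log2 effect after siRNA minus the log2 effect without it. A positive value thus means that the drug raised a gene by a larger fold, or lowered it by a smaller fold, after the siRNA. The 4 groups with 3 libraries each make up 12 of the 15 libraries of the series, and the 12823 of 13172 genes listed for all 4 groups were tested.

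Hif1a_siRNA_Dox cells received Hif1a siRNA at 25 nM in lipoplexes, then 0.25 µM doxorubicin 24 h later, and stayed in the drug for 24 h. Hif1a_siRNA cells received the same siRNA and no drug. Dox cells received 0.25 µM doxorubicin for 24 h and no siRNA, and Control cells received neither. A further group, NC_siRNA, carried a negative control siRNA at 25 nM without the drug. The labels hold no group with negative control siRNA and doxorubicin, so loss of Hif1a and transfection itself cannot be told apart in the difference. They give no time from siRNA to harvest for the groups without the drug, and name each library a biological replicate. Separate cultures are not mentioned, so the p-values measure the spread between these libraries, which may be technical.

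Each library held 23825110 to 28734303 counted reads. Mitochondrially encoded genes took a mean of 4.63% of the reads in Hif1a_siRNA_Dox, 1.91% in Hif1a_siRNA, 3.78% in Dox and 1.43% in Control. Hif1a_siRNA_Dox replicate 3 stood apart from replicates 1 and 2 on the third principal component, which held 3% of the variance. Without it 3260 genes were called higher and 4149 lower in the difference, against 3175 and 4098 with it. All 7 melanocyte markers were measured (Mitf, Sox10, Pmel, Dct, Tyr, Tyrp1 and Mlana), with summed levels of 31670, 9331, 41560 and 14160 CPM (counts scaled to a common library size) in Hif1a_siRNA_Dox, Hif1a_siRNA, Dox and Control. Pmel, Dct and Tyrp1 made up most of each sum and, like Mlana, had higher means with the drug in both arms. Sox10 and Tyr had lower means with it in both arms, and Mitf only after siRNA. In the same order of groups Sox10 averaged 28.96, 183.6, 27.9 and 202.9 CPM, and Tyr 43.76, 152.1, 56.68 and 79.29 CPM. Of the other cells' markers, Col1a1 and Pdgfra (2 of 5 for fibroblasts) and Cd68 (1 of 4 for macrophages) were listed for all 4 groups, and none of 3 T cell (Cd3e, Cd3d, Cd8a), 3 endothelial (Pecam1, Cdh5, Kdr) or 3 keratinocyte markers (Krt5, Krt14, Krt10) was. Vwf, from a longer endothelial list, averaged 9.55 CPM in Hif1a_siRNA_Dox, 1.58 in Hif1a_siRNA, 9.88 in Dox and 1.47 in Control. Cd68 was highest in Control instead, with 6.72 CPM in Hif1a_siRNA_Dox, 7.61 in Hif1a_siRNA, 4.82 in Dox and 23.8 in Control. The fibroblast pair summed to 68.1 CPM in Hif1a_siRNA_Dox, 4.40 in Hif1a_siRNA, 49.5 in Dox and 6.56 in Control. Its part in the results, like that of Cd68, Vwf or the mitochondrial share, was not tested. In such bulk samples a gene's level is a share of the RNA, and fewer cells expressing it cannot be told apart from less RNA per cell.

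The product of Hif1a is the subunit of the factor HIF-1 whose stability depends on oxygen. In low oxygen the prolyl hydroxylases that mark this subunit for destruction through Vhl are less active, so it accumulates, pairs with the product of Arnt and binds ACGTG or GCGTG sites near genes of glucose uptake, glycolysis, pH control and blood vessel growth. Doxorubicin is an anthracycline that intercalates into DNA, traps topoisomerase II on it and evicts histones. Such damage engages p53, whose targets include the cell cycle inhibitor Cdkn1a and genes of DNA repair and cell death.

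The effect of doxorubicin differed for 3175 genes that were higher and 4098 that were lower in the difference (called by edgeR's quasi-likelihood test, Benjamini-Hochberg adjusted p under 0.05). That is 24.8% higher, 32% lower and 56.7% called either way. Past 2-fold, 1139 genes were higher and 1731 lower. The excess of lower calls depended on the scaling: with DESeq2's size factors in the same edgeR fit 3710 were higher and 3566 lower, and the median log2 difference was 0.02, against -0.08 with TMM factors. Log2 differences below are given ± SE. Each arm on its own was wide. After siRNA the drug raised 41.1% of genes and lowered 42.7% (83.8% called), and without siRNA it raised 42.6% and lowered 40.6% (83.1% called). The arms share no library. Across the 12823 genes, which are not independent replicates, their effects had a Pearson correlation of 0.834 and a Spearman correlation of 0.824. Of 9416 genes called in both arms, 8585 (91.2%) moved the same way.

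Most called genes did not have called effects of opposite sign in the arms. The drug's increase was smaller after siRNA for 1970 genes and its decrease smaller for 1410. The increase was larger after siRNA for 1390 genes and the decrease larger for 1672. These sizes are fold changes. In CPM the difference had the other sign for 254 of the 1970, 17 of the 1410, 121 of the 1390 and 33 of the 1672. Opposite effects, each called on its own, formed the smallest classes: 375 genes rose after siRNA and fell without it, and 456 fell after siRNA and rose without it. The 375 had median log2 effects of 0.67 after siRNA and -0.68 without it, and the 456 had medians of -0.56 after siRNA and 0.57 without it.

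**Figure D1:**
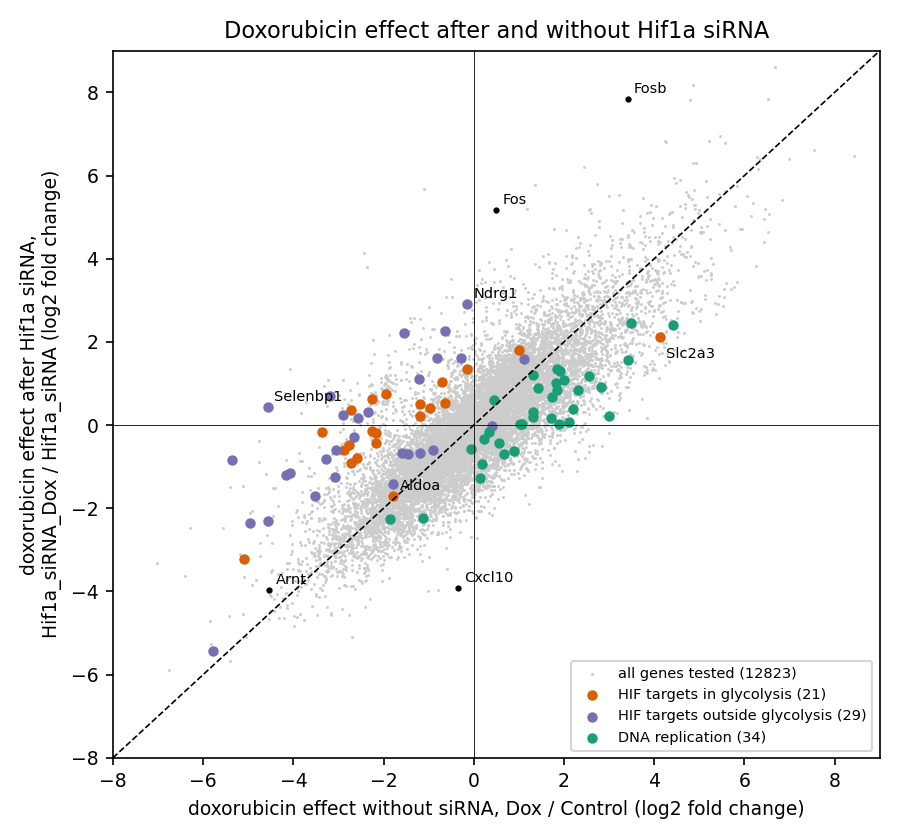
Doxorubicin effect after Hif1a siRNA (y axis, log2 fold change of Hif1a_siRNA_Dox over Hif1a_siRNA) against the effect without siRNA (x axis, log2 fold change of Dox over Control), 1 point per gene for 12823 genes. The dashed line marks equal effects; most HIF targets lie above it and most DNA replication genes below it, while Aldoa lies on it and Slc2a3 far below it.

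The same difference can be read across the siRNA. With doxorubicin, siRNA and no-siRNA cells lay close together: the log2 fold changes of Hif1a_siRNA_Dox over Dox had an SD of 0.463 across genes, and 3.8% were past 2-fold. Without doxorubicin, Hif1a_siRNA over Control had an SD of 1.045, and 27.3% were past 2-fold. With the drug 2494 genes were higher (19.4%) and 2594 lower (20.2%), which is 39.7% called. Without it 5053 were higher (39.4%) and 4289 lower (33.4%), which is 72.9% called. These pairs of groups share no library, but each enters the difference. SDs of the drug's own effects were 1.588 after siRNA and 1.662 without it.

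**Figure D2:**
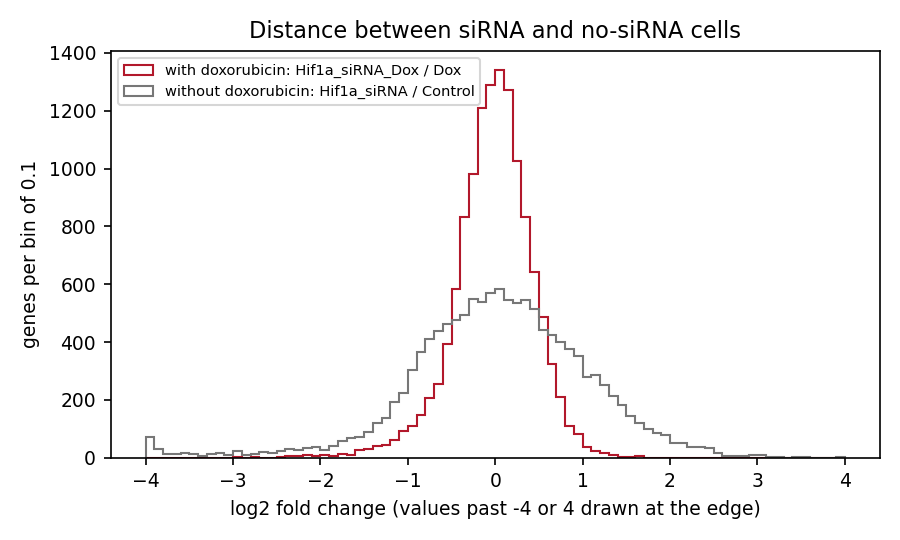
Histogram of log2 fold changes of siRNA over no-siRNA cells, in genes per bin of 0.1, with doxorubicin (Hif1a_siRNA_Dox over Dox, red) and without it (Hif1a_siRNA over Control, grey). The red distribution is the narrower, with an SD of 0.463 against 1.045.

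Hif1a itself, the gene the siRNA was made against, lies at chr12:73901324-73947554 (mm10). It had 13.1, 11.3 and 13.8 CPM in Hif1a_siRNA_Dox, 16.9, 16.2 and 19.2 CPM in Hif1a_siRNA, 135, 135 and 149 CPM in Dox and 207, 234 and 220 CPM in Control. Every siRNA library lay below every library without siRNA. Hif1a fell with the drug in both arms, with log2 effects of -0.45 after siRNA and -0.66 without it. The difference of 0.21 ± 0.13 (SE) was not called (edgeR adjusted p = 0.172, 95% interval -0.06 to 0.47), though DESeq2's size factors, DESeq2 itself and a start from NC_siRNA called it, at 0.31, 0.31 and 0.55.

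Among the subunits and regulators of HIF, 5 of 9 were higher and 1 lower in the difference, against 24.8% and 32% of all genes, with a median of 0.56 against -0.08 over all genes. Egln1, the main prolyl hydroxylase, had 34.8, 36 and 30.5 CPM in Hif1a_siRNA_Dox, 28.2, 31.5 and 30.9 CPM in Hif1a_siRNA, 35.1, 40.9 and 32.2 CPM in Dox and 198, 208 and 232 CPM in Control. Control stood far above the other groups, whose libraries ran from 28.2 to 40.9 CPM, and the difference was 2.72 ± 0.14. Cited2, which competes with HIF for its coactivators, had a difference of 1.65 ± 0.11, and Vhl, which recognises hydroxylated HIF for degradation, 0.93 ± 0.15. Epas1, encoding HIF-2α, rose with the drug in both arms. It had 33.5, 28.5 and 36.3 CPM in Hif1a_siRNA_Dox, 8.64, 9.82 and 10.9 CPM in Hif1a_siRNA, 31.3, 31.8 and 28.8 CPM in Dox and 17.4, 16.7 and 14.7 CPM in Control. Its effects were 1.74 after siRNA and 0.91 without it, a difference of 0.83 ± 0.17. Arnt, the partner subunit, averaged 11.9 ± 0.133 CPM in Hif1a_siRNA_Dox, 186 ± 4.42 CPM in Hif1a_siRNA, 8.99 ± 0.872 CPM in Dox and 208 ± 11.7 CPM in Control (SD, n = 3). It fell with the drug in both arms, and the difference was 0.56 ± 0.11. Hif1an, whose product blocks HIF's coactivator binding in oxygen, was the 1 lower member at -0.53 ± 0.19; with size factors the counts were 6 higher and 0 lower. Hif1a, Egln2 and Egln3 were not called.

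Glycolytic targets of HIF gave a large positive difference. Of 21 measured, 19 were higher and 1 was lower, against 24.8% and 32% of all genes. The median was 1.80 against -0.08 over all genes. After siRNA the drug raised 11 and lowered 8 (median 0.22), against 41.1% and 42.7% of all genes. Without siRNA it raised 2 and lowered 18 (median -2.16), against 42.6% and 40.6% of all genes. In 19 of the 21 Control had the highest mean of the 4 groups, as it had for 25.8% of all genes.

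Slc2a1, encoding the glucose transporter GLUT1, had 44.4, 48.7 and 45.4 CPM in Hif1a_siRNA_Dox, 50.2, 52.8 and 52.5 CPM in Hif1a_siRNA, 39.8, 52.5 and 48.1 CPM in Dox and 535, 454 and 466 CPM in Control. Control alone was high, and the other libraries ran from 39.8 to 52.8 CPM. Its difference was 3.21 ± 0.13 (edgeR adjusted p = 8.52e-14), with -0.17, not called, after siRNA and a fall without it (-3.37). Gapdh, the glycolytic dehydrogenase often used as a reference gene, had 3187, 2924 and 3023 CPM in Hif1a_siRNA_Dox, 1816, 1813 and 1789 CPM in Hif1a_siRNA, 6629, 6480 and 6802 CPM in Dox and 27549, 24752 and 24889 CPM in Control. No groups overlapped: it rose after siRNA (log2 effect 0.75) and fell without it (-1.96), a difference of 2.71 ± 0.09. Slc16a3, the lactate exporter MCT4, had 24.2, 20 and 21.1 CPM in Hif1a_siRNA_Dox, 17.7, 17.6 and 15.7 CPM in Hif1a_siRNA, 20.3, 20.7 and 24.5 CPM in Dox and 147, 137 and 149 CPM in Control. Its difference of 3.08 ± 0.14 again came with Control far above the rest; its span shares 1292 bases with Csnk1d. Aldoc, a fructose-bisphosphate aldolase, had a difference of 2.88 ± 0.11, with 0.63 after siRNA and -2.25 without it.

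Pkm, pyruvate kinase, rose after siRNA (1.35) and had -0.15, not called, without it. Ldha, lactate dehydrogenase A, averaged 436 ± 53.7 CPM in Hif1a_siRNA_Dox, 589 ± 6.25 CPM in Hif1a_siRNA, 1510 ± 102 CPM in Dox and 6748 ± 431 CPM in Control (SD, n = 3). Control was highest and both siRNA groups lowest, and the difference was 1.73. The 2 exceptions among the 21 were Aldoa, the muscle-type aldolase, and Slc2a3, the glucose transporter GLUT3. Aldoa fell in both arms (-1.71 after siRNA and -1.78 without it), with a difference of 0.07 ± 0.10 that was not called. Slc2a3 was lower in the difference at -2.02 ± 0.16: it rose in both arms (2.12 after siRNA and 4.13 without it). Under the drug most of these genes were still lower in the siRNA cells. In Hif1a_siRNA_Dox against Dox, 17 of the 21 were lower and 1 was higher (median -0.91), against 20.2% and 19.4% of all genes, with Gapdh at -1.12, Ldha at -1.79 and Aldoa at -1.94.

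HIF targets outside glycolysis gave the highest median of the 29 lists, 2.42: 27 of 29 were higher, Narf was lower at -0.42 and Egln3 was not called. Of all genes 24.8% were higher and 32% lower. After siRNA the drug raised 11 and lowered 16 (median -0.60), against 41.1% and 42.7% of all genes. Without siRNA it raised 2 and lowered 27 (median -2.56), against 42.6% and 40.6%. In 27 of the 29 Control had the highest mean, as it had for 25.8% of all genes. Under the drug 17 were lower and 4 higher in the siRNA cells, against 20.2% and 19.4% of all genes, with a median of -0.23. All 29 lists were chosen with earlier results of these data known, so their ranks are a description and no independent support. Selenbp1 is counted as a HIF target here because the list holds it, and it has the list's highest difference.

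Selenbp1, a selenium-binding methanethiol oxidase at chr3:94933083-94944758, had 40.7, 40.9 and 35.7 CPM in Hif1a_siRNA_Dox, 27.6, 30 and 29.7 CPM in Hif1a_siRNA, 60.5, 59 and 59.6 CPM in Dox and 1550, 1338 and 1354 CPM in Control. Control libraries had 1338 CPM or more and all others 60.5 CPM or less. Selenbp1 rose slightly after siRNA (0.43) and fell without it (-4.57), a difference of 4.99 ± 0.11 (edgeR adjusted p = 4.00e-17). Its near-identical neighbour Selenbp2 had a difference of 5.42 ± 0.17, but reads may be split between the 2 copies in a way that is uncertain. Ankrd37, an ankyrin-repeat gene induced by hypoxia, had 6.53, 6.49 and 4.06 CPM in Hif1a_siRNA_Dox, 9.39, 10.9 and 10.4 CPM in Hif1a_siRNA, 5.1, 7.09 and 5.92 CPM in Dox and 256, 231 and 264 CPM in Control. It fell in both arms (-0.83 after siRNA and -5.37 without it), a difference of 4.54 ± 0.20. Adm, encoding the vessel-dilating peptide adrenomedullin, averaged 6.56 ± 0.739 CPM in Hif1a_siRNA_Dox, 4.03 ± 0.677 CPM in Hif1a_siRNA, 7.59 ± 0.907 CPM in Dox and 69 ± 6.79 CPM in Control (SD, n = 3), a difference of 3.88 ± 0.20.

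Ndrg1, a stress-responsive gene linked to growth arrest, showed another layout. It had 1203, 1142 and 1085 CPM in Hif1a_siRNA_Dox, 149, 152 and 155 CPM in Hif1a_siRNA, 1270, 1334 and 1422 CPM in Dox and 1523, 1485 and 1466 CPM in Control. Here Hif1a_siRNA alone was low, and the other 3 groups did not overlap with it. Ndrg1 rose after siRNA (2.91) and fell slightly without it (-0.15, edgeR adjusted p = 0.0273), a difference of 3.06 ± 0.09. Hilpda, which inhibits lipolysis at lipid droplets, was among the genes with opposite effects: it rose after siRNA (2.21) and fell without it (-1.55). Its levels were 10.5, 12.7 and 11.6 CPM in Hif1a_siRNA_Dox, 2.36, 2.76 and 2.41 CPM in Hif1a_siRNA, 14.9, 15.7 and 18.4 CPM in Dox and 50.3, 43.1 and 50.2 CPM in Control, with no overlap between groups. Higd1a and Fam162a, mitochondrial proteins induced by hypoxia, had differences of 3.15 ± 0.10 and 2.66 ± 0.09, each with a called rise after siRNA. Vegfa, the vessel growth factor, Ddit4, an mTORC1 inhibitor, and Car9, a carbonic anhydrase at the cell surface, fell in both arms but by less after siRNA. The effects were -0.29 after siRNA and -2.66 without it for Vegfa, -1.21 and -4.17 for Ddit4, and -2.36 and -4.95 for Car9.

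The HIF core was searched in the 250 bases before the start given by each gene's promoter entry (GRCm38.p6), as ACGTG and GCGTG on both strands. It was found in 34 of the 43 HIF targets of both lists with a promoter entry (79.1%), in 14 of 20 glycolytic ones (70.0%) and in 20 of 23 others (87.0%). Of all tested genes with an entry, 57.9% of 9608 held it, as did 58.8% of those called higher and 60.1% of those called lower in the difference. The shares among higher and lower calls were thus close to that of all genes. The promoters of Selenbp1, Ankrd37 and Adm, members of the HIF lists with large differences, are printed to show where the cores lie. Sequences run 5′ to 3′ on the gene's strand, with cores in capitals. Each region ends at the base before the start of its promoter entry. For Ankrd37 that start lies inside the gene's RefSeq span, chr8:45996908-46000414. Its printed region is therefore within the span and not before it.
Selenbp1, chr3:94932833-94933082, plus strand: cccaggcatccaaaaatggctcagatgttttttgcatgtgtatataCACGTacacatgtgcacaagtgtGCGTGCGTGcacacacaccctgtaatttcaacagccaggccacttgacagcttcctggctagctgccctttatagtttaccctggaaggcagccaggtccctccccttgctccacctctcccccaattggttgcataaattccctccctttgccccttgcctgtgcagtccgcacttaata
Ankrd37, chr8:45999851-46000100, minus strand: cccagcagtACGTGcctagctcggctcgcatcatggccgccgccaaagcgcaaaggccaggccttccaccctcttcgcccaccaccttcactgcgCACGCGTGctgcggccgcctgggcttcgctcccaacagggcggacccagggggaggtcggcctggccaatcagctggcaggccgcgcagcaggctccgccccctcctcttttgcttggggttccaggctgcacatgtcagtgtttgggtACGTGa
Adm, chr7:110627407-110627656, plus strand: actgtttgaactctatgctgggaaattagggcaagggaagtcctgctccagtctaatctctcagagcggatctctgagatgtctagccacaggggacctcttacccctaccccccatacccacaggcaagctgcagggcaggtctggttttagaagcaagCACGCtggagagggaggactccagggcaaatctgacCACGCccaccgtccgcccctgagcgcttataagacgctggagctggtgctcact
Selenbp1 held 3 matches, Ankrd37 4 and Adm 2. Adjacent capitals are matches that touch or overlap, and CACGT and CACGC are the same cores read on the other strand. A match is a description of the letters and does not show binding.

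**Figure D3:**
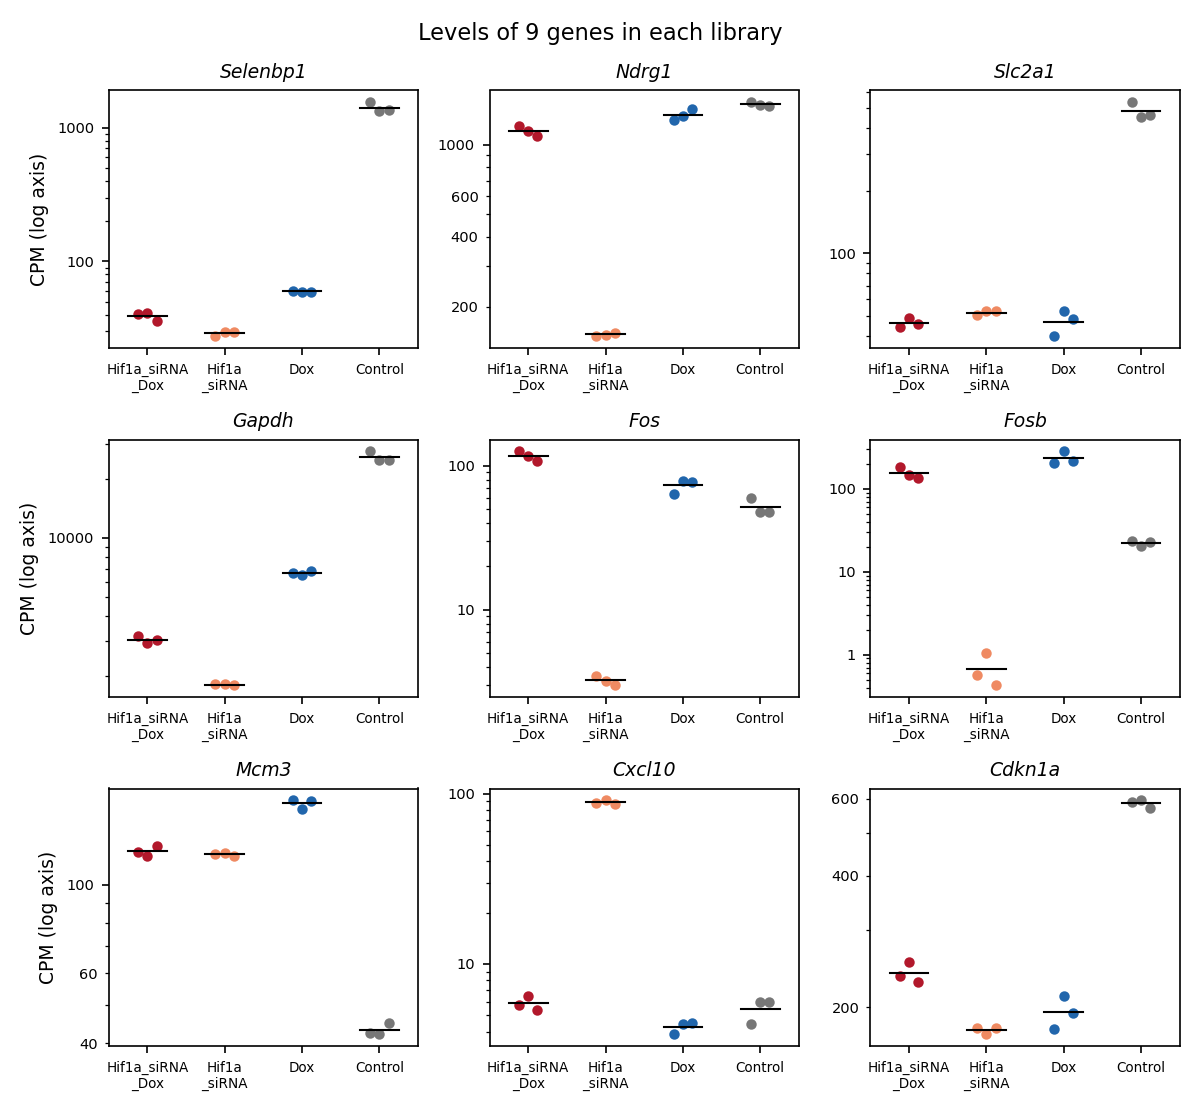
Level of 9 genes in each of 12 libraries, in CPM on log axes, with Hif1a_siRNA_Dox, Hif1a_siRNA, Dox and Control from left to right; points are libraries and bars are means of 3. Control alone is high for Selenbp1, Slc2a1 and Cdkn1a and alone low for Mcm3. Hif1a_siRNA alone is low for Ndrg1 and Fos and alone high for Cxcl10. For Fosb, Hif1a_siRNA is lowest, and Control lies between it and the drug-treated groups.

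Immediate early genes, which cells switch on within minutes of a stimulus, were more often higher than lower in the difference. Of 18, 10 were higher and 3 lower, against 24.8% and 32% of all genes, and the median was 0.94. Fos, a subunit of the factor AP-1, had 126, 117 and 107 CPM in Hif1a_siRNA_Dox, 3.47, 3.22 and 2.98 CPM in Hif1a_siRNA, 63.2, 78.3 and 77.2 CPM in Dox and 59.9, 47.8 and 48 CPM in Control. Hif1a_siRNA libraries were far below all others, and Fos rose by 5.18 after siRNA and by 0.49 without it. The difference was 4.69 ± 0.16 (edgeR adjusted p = 1.60e-14). Its relative Fosb had 182, 147 and 137 CPM in Hif1a_siRNA_Dox, 0.568, 1.04 and 0.426 CPM in Hif1a_siRNA, 207, 286 and 218 CPM in Dox and 23.7, 20.3 and 22.6 CPM in Control. The 3 Hif1a_siRNA libraries held 18, 34 and 14 reads, so its effect of 7.83 after siRNA rests on few reads in that group. Without siRNA the effect was 3.41. In CPM the drug raised Fosb less after siRNA than without it, a difference of -59.85 CPM. Egr1, a zinc finger factor of the same class, was raised in both arms, by 8.61 after siRNA and 6.67 without it, with means under 1 CPM in both groups without the drug.

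Ier3, a stress-response gene, had 23, 21.3 and 19.2 CPM in Hif1a_siRNA_Dox, 58, 59.7 and 61.4 CPM in Hif1a_siRNA, 19, 19.4 and 18.4 CPM in Dox and 866, 749 and 782 CPM in Control, so that Control alone was high. Its difference of 3.90 ± 0.11 was of a decrease that was smaller after siRNA. Zfp36, which destabilises inflammatory mRNAs, had 103, 91.8 and 77.3 CPM in Hif1a_siRNA_Dox, 26.8, 24.8 and 25.2 CPM in Hif1a_siRNA, 45.6, 58.2 and 51.5 CPM in Dox and 57.4, 49.8 and 52.1 CPM in Control. It rose by 1.83 after siRNA and had -0.04, not called, without it. Klf6, Srf and Atf3 were the 3 lower members, at -1.44, -0.80 and -0.61. Under the drug 15 of the 18 were higher and 1 was lower in siRNA cells (median 0.60), against 19.4% and 20.2% of all genes.

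Feedback genes of the ERK pathway, transcribed in response to ERK and mostly acting to restrain it, went mainly the other way. Of 10, 6 were lower and Spry2 and Spred2 were higher, against 32% and 24.8% of all genes, with a median of -0.67. Ccnd1, the G1 cyclin, had 102, 82.7 and 108 CPM in Hif1a_siRNA_Dox, 24.5, 25.8 and 23.9 CPM in Hif1a_siRNA, 87.3, 89.3 and 76.7 CPM in Dox and 4.82, 4.34 and 4.1 CPM in Control. It rose in both arms, by 1.98 after siRNA and 4.25 without it, a difference of -2.27 ± 0.16; its span shares 818 bases with a neighbouring gene. Phlda1 had 25.6, 23 and 28 CPM in Hif1a_siRNA_Dox, 331, 350 and 342 CPM in Hif1a_siRNA, 24.1, 25.3 and 25.4 CPM in Dox and 134, 130 and 134 CPM in Control, with Hif1a_siRNA above Control and both above the drug-treated groups, and a difference of -1.33 ± 0.10. Dusp4, a MAP kinase phosphatase, had a difference of -1.10 ± 0.12. Spred1, a Ras inhibitor, stood at -1.28 ± 0.16, a call that was lost when NC_siRNA replaced Control (-0.01, adjusted p = 0.94).

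DNA replication genes had the lowest median of the 29 lists, -1.05. None of 34 was higher and 31 were lower, against 24.8% and 32% of all genes. After siRNA the drug raised 19 and lowered 9 (median 0.27), against 41.1% and 42.7% of all genes. Without siRNA it raised 29 and lowered 2 (median 1.57), against 42.6% and 40.6%. In 30 of the 34 Control had the lowest mean, as it had for 29.5% of all genes. The 3 members not called were Rfc2, Mcm7 and Gins1.

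Mcm3, a subunit of the replicative helicase, had 121, 118 and 125 CPM in Hif1a_siRNA_Dox, 120, 120 and 118 CPM in Hif1a_siRNA, 163, 155 and 162 CPM in Dox and 42.4, 42.1 and 45 CPM in Control. Control was alone at the low end and Hif1a_siRNA overlapped with Hif1a_siRNA_Dox, so that the drug's effect was 0.02, not called, after siRNA and 1.89 without it. The difference was -1.87 ± 0.09 (edgeR adjusted p = 2.99e-12). Mcm4, another subunit, had a difference of -1.81 ± 0.09, and Mcm10, which activates the helicase, -1.90 ± 0.12. Cdc6, which loads the helicase, had the lowest difference of the list at -2.77 ± 0.19. Pcna, the sliding clamp, fell after siRNA (-0.70) and rose without it (0.67).

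Genes of homologous recombination and the Fanconi pathway repair double-strand breaks and crosslinks. Of 24, 16 were lower and Blm alone was higher, against 32% and 24.8% of all genes, with a median of -0.68. Bard1, the partner of Brca1, and Brip1, a helicase that binds it, had differences of -1.72 ± 0.17 and -1.70 ± 0.17, with effects after siRNA of -1.80 and -1.26. Brca2, a core protein of this repair, fell after siRNA (-1.83) and had 0.04, not called, without it. Blm, a helicase that dissolves recombination intermediates, had 31.7, 32.6 and 32.1 CPM in Hif1a_siRNA_Dox, 47.6, 47.4 and 44.5 CPM in Hif1a_siRNA, 24.1, 21.8 and 23 CPM in Dox and 68.9, 72.2 and 76.5 CPM in Control, and its decrease was smaller after siRNA, a difference of 1.13 ± 0.11. Gen1, which cuts Holliday junctions, was among the genes with opposite effects. It fell after siRNA (-1.20) and rose without it (1.11), a difference of -2.31 ± 0.18; it shares 144 bases with Smc6.

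Interferon-stimulated genes were lower for 14 of 26 and higher for Isg20 and Irf1, against 32% and 24.8% of all genes, with a median of -0.72. With NC_siRNA in place of Control, 8 of 24 were lower and 4 higher, against 31.2% and 27.2% of all genes, and the median was -0.05. Cxcl10, a chemokine that attracts T cells, had 5.77, 6.49 and 5.37 CPM in Hif1a_siRNA_Dox, 88.3, 91.5 and 87.4 CPM in Hif1a_siRNA, 3.86, 4.45 and 4.49 CPM in Dox and 4.42, 5.99 and 5.96 CPM in Control. Hif1a_siRNA was high by itself, and the other 3 groups lay between 3.86 and 6.49 CPM. Cxcl10 fell steeply after siRNA (-3.92) and slightly without it (-0.35, edgeR adjusted p = 0.023), a difference of -3.56 ± 0.18 (edgeR adjusted p = 3.77e-12). It lies within the span of Art3, so its reads may be shared.

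Ifit2, an antiviral protein, had the same layout, with effects of -2.24 after siRNA and 0.05, not called, without it. Ifit1 fell after siRNA (-1.48) and rose without it (1.45), a difference of -2.93 ± 0.37. Both groups of the arm without siRNA held few reads for it, 8 to 10 per library in Control and 18 to 35 in Dox. Its span lies wholly within that of Ifit1bl1 (9121 bases shared), so its reads may be shared. Isg15, a ubiquitin-like modifier, had 20, 23.3 and 22.7 CPM in Hif1a_siRNA_Dox, 8.1, 7.67 and 6.91 CPM in Hif1a_siRNA, 20.1, 22.8 and 23.1 CPM in Dox and 0.848, 1.7 and 1.68 CPM in Control. Drug-treated groups overlapped and Control was lowest, so the increase was smaller after siRNA (1.54) than without it (3.96); Control held 19 to 38 reads per library. Isg20, an exonuclease, went the other way. It had 16.4, 20.2 and 20.2 CPM in Hif1a_siRNA_Dox, 5.9, 7.03 and 7.12 CPM in Hif1a_siRNA, 20, 18.6 and 17.9 CPM in Dox and 100, 84.5 and 88 CPM in Control, and its difference was 3.77 ± 0.16.

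Class I antigen presentation was mixed, with 7 of 12 higher and 2 lower, against 24.8% and 32% of all genes, and a median of 0.37. H2-T23, a non-classical class I molecule that serves as a ligand of natural killer cell receptors, had 3.53, 4.22 and 3.31 CPM in Hif1a_siRNA_Dox, 1.01, 0.767 and 0.7 CPM in Hif1a_siRNA, 3.99, 4.7 and 4.49 CPM in Dox and 19.5, 13.7 and 15.4 CPM in Control. It rose after siRNA (2.16) and fell without it (-1.88), a difference of 4.04 ± 0.28 with 23 to 32 reads per library in Hif1a_siRNA. H2-K1, a classical class I heavy chain, averaged 489 ± 46.3 CPM in Hif1a_siRNA_Dox, 41 ± 1.3 CPM in Hif1a_siRNA, 577 ± 22.4 CPM in Dox and 330 ± 20.9 CPM in Control (SD, n = 3), and its difference was 2.77 ± 0.10. Class I genes are close copies of each other, so the split of reads among them is uncertain.

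Of 24 targets of p53, 7 were higher and 14 lower, against 24.8% and 32% of all genes, with a median of -0.34. The share of higher members was thus near that of all genes. Cdkn1a, the inhibitor p21, had 236, 253 and 228 CPM in Hif1a_siRNA_Dox, 179, 173 and 179 CPM in Hif1a_siRNA, 178, 212 and 194 CPM in Dox and 588, 595 and 572 CPM in Control. Control was the highest group. Cdkn1a rose after siRNA (0.43) and fell without it (-1.59), a difference of 2.02 ± 0.10 (edgeR adjusted p = 1.62e-12). Bax, a pore-forming killer protein, followed with effects of 0.47 after siRNA and -0.56 without it. Aen, a nuclease of the apoptotic response, had 70.7, 74.9 and 73.8 CPM in Hif1a_siRNA_Dox, 48.5, 47.2 and 45.5 CPM in Hif1a_siRNA, 76.7, 74.2 and 61.8 CPM in Dox and 10.7, 9.97 and 11.5 CPM in Control. Here Control was lowest, the drug's increase was smaller after siRNA and the difference was -2.09 ± 0.13. Rrm2b, a p53-induced subunit of ribonucleotide reductase, fell after siRNA (-0.70) and rose without it (1.40). Mdm2, the ligase that degrades p53, had -0.19, not called, after siRNA and 0.89, a called increase, without it. Among 11 members of the BCL2 family 5 were higher and 5 lower, against 24.8% and 32% of all genes; Bid, which links caspases to mitochondria, had the lowest difference at -2.35 ± 0.16, and Bcl2l11, the killer protein Bim, the highest at 1.40 ± 0.14.

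**Figure D4:**
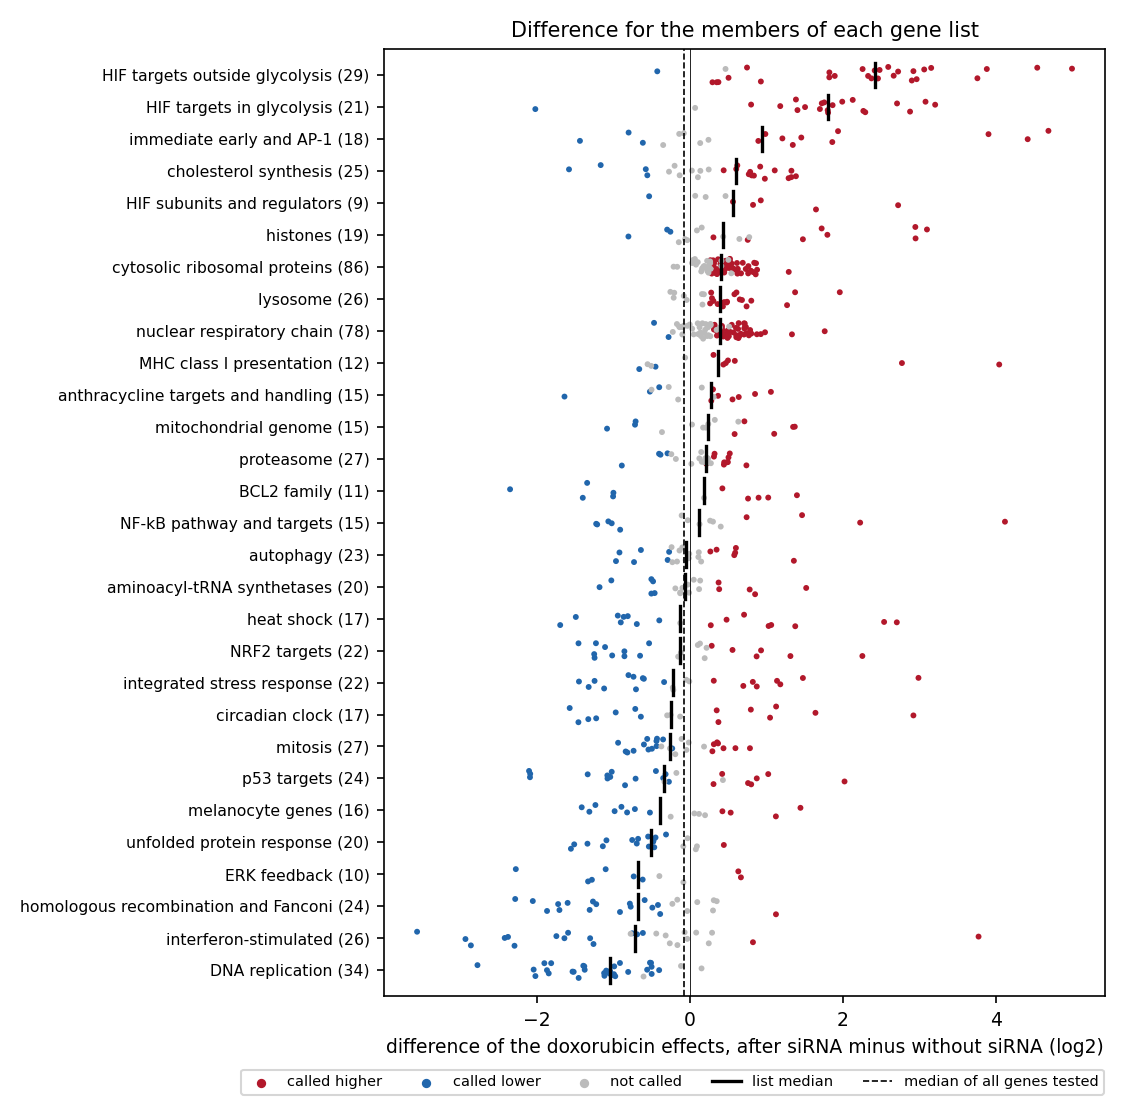
Difference of the doxorubicin effects (x axis, log2, after siRNA minus without siRNA) for each measured member of 29 gene lists, ordered by median, with the number of members in brackets. Black bars are list medians, from 2.42 for HIF targets outside glycolysis to -1.05 for DNA replication, and the dashed line is the median of all genes, -0.08.

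Of all genes 24.8% were higher and 32% lower in the difference. Cholesterol synthesis genes were higher for 14 of 25 and lower for 4, with a median of 0.61. Lss, lanosterol synthase, had 106, 92.1 and 103 CPM in Hif1a_siRNA_Dox, 52.8, 53.6 and 54.9 CPM in Hif1a_siRNA, 129, 135 and 124 CPM in Dox and 183, 167 and 173 CPM in Control. It rose after siRNA (0.90) and fell without it (-0.43), a difference of 1.33 ± 0.10. Pmvk, phosphomevalonate kinase, rose by 1.51 after siRNA with 0.18, not called, without it, and Nsdhl, a sterol dehydrogenase, had a difference of 1.29 ± 0.12. Idi1, isopentenyl diphosphate isomerase, was the lowest member at -1.58 ± 0.11, with an increase smaller after siRNA. Lysosomal genes were higher for 18 of 26 with none lower (median 0.40), led by Ctsa, a protective carboxypeptidase, at 1.96 ± 0.10. Genes of the unfolded protein response were lower for 15 of 20 and higher for Hsp90b1 alone (median -0.51), with Dnajb9, a chaperone partner in the endoplasmic reticulum, at -1.55 ± 0.15.

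Of 16 melanocyte genes 4 were higher and 8 lower, against 24.8% and 32% of all genes, with a median of -0.39. From NC_siRNA 2 were higher and 12 lower, against 27.2% and 31.2% of all genes, with a median of -0.73. Mitf, the lineage's transcription factor, averaged 48.4 ± 6.33 CPM in Hif1a_siRNA_Dox, 82.5 ± 0.967 CPM in Hif1a_siRNA, 42.1 ± 3.25 CPM in Dox and 36.3 ± 4.16 CPM in Control (SD, n = 3), and fell after siRNA (-0.77) with 0.21, not called, without it. Tyr, tyrosinase of pigment synthesis, had a difference of -1.31 ± 0.16, while Mlana was higher at 1.12 ± 0.11 and Pmel and Tyrp1 were not called. Among anthracycline targets, Top2a, the topoisomerase that doxorubicin traps in dividing cells, fell in both arms (-3.07 after siRNA and -3.44 without it), a difference of 0.37 ± 0.10.

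Besides genes already named, the largest positive differences among called genes with at least 5 CPM in some group were those of Ltbp1, Proser2 and Tph1. Ltbp1, which binds latent TGF-β, had 5.88, 2.83 and 3.04 CPM in Hif1a_siRNA_Dox, 0.0631, 0.0921 and 0.0609 CPM in Hif1a_siRNA, 3.22, 3.46 and 2.68 CPM in Dox and 6.39, 6.57 and 7.19 CPM in Control. The Hif1a_siRNA libraries held 2, 3 and 2 reads, so the difference of 6.78 ± 0.49 rests on a group near the detection limit. Proser2 had 6, 8 and 4 reads in Hif1a_siRNA and a difference of 6.15 ± 0.38. Tph1, tryptophan hydroxylase, had 0.968, 0.157 and 0.434 CPM in Hif1a_siRNA_Dox, 0.189, 0.46 and 0.244 CPM in Hif1a_siRNA, 0.386, 0.494 and 0.518 CPM in Dox and 9.56, 7.56 and 8.43 CPM in Control, with 5 to 28 reads in each library outside Control, and its difference was 4.95 ± 0.64. Neurl2, an adaptor of a ubiquitin ligase, rose after siRNA (1.51) and fell without it (-1.89), a difference of 3.40 ± 0.29, but shares 725 bases with Ctsa.

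The largest negative difference by the same rule was that of Cmtr2, a methyltransferase of mRNA caps, followed by Cxcl10. Cmtr2 had 12.1, 13.4 and 11 CPM in Hif1a_siRNA_Dox, 11, 11.6 and 9.99 CPM in Hif1a_siRNA, 8.92, 11.6 and 9.8 CPM in Dox and 0.848, 0.581 and 0.662 CPM in Control. Control alone was low, and the other 3 groups lay between 8.92 and 13.4 CPM; the difference of -3.68 ± 0.25 came with 0.17, not called, after siRNA and 3.85 without it. Gemin4, of the complex that assembles spliceosomal particles, had 33.1, 27.3 and 28.6 CPM in Hif1a_siRNA_Dox, 7.94, 7.92 and 9.29 CPM in Hif1a_siRNA, 25.5, 23.7 and 28.8 CPM in Dox and 1.03, 0.671 and 0.662 CPM in Control. It rose in both arms, by 1.82 after siRNA and 5.04 without it, a difference of -3.22 ± 0.23. Both rest on few reads in Control, 13 to 19 per library for Cmtr2 and 15 to 23 for Gemin4. Eif1a, a translation initiation factor, fell after siRNA (-0.82) and rose without it, a difference of -3.13 ± 0.14. Pprc1, a coactivator of mitochondrial gene programmes, had 26.5, 24.2 and 24.7 CPM in Hif1a_siRNA_Dox, 51.8, 55.5 and 54.4 CPM in Hif1a_siRNA, 21.5, 21.6 and 20.4 CPM in Dox and 3.88, 4.7 and 4.41 CPM in Control, with Hif1a_siRNA highest and Control lowest. It fell after siRNA (-1.10) and rose without it (2.29), a difference of -3.39 ± 0.14.

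Pigw, of GPI anchor synthesis, had a difference of -3.26 ± 0.33 and shares 116 bases with Myo19. Snhg15, a non-coding host gene of small nucleolar RNAs, had -3.11 ± 0.22. Snora65, a small nucleolar RNA, had -3.20 ± 0.30, but lies wholly within Rpl12, so its reads may belong to that gene. Zfp719, a zinc finger gene, fell after siRNA (-1.09) and rose without it (1.95), a difference of -3.05 ± 0.33. The Control libraries held 13 to 20 reads for Pigw, 21 to 36 for Snora65 and 11 to 19 for Zfp719, so the size of these differences is poorly set.

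With NC_siRNA in place of Control, the drug's effect without Hif1a siRNA was measured from transfected cells, though Dox cells had not been transfected. Of 12715 genes, 27.2% were then called higher and 31.2% lower. Of 7242 genes called from Control, 4385 (60.5%) were called the same way, 579 the opposite way and 2278 were not called. Of 2837 genes called past 2-fold from Control, 2142 (75.5%) were called the same way and 59 the opposite way. HIF targets kept their side, with 19 of 21 glycolytic members higher (median 1.32) and 28 of 29 others higher (median 2.58). All 34 replication genes were lower, with a median of -1.92. Of the genes given above by the naming rule and listed for NC_siRNA, Spred1 alone lost its call. The size of the log2 difference moved by over 1.5 times for 14 of 58. It was smaller for 10 genes: Spred1, Ifit2 (-0.80), Pigw (-1.18), Idi1 (-0.65), Zfp719 (-1.29), Bax (0.49), Rrm2b (-1.05), Cmtr2 (-1.87), Pprc1 (-1.84) and Gemin4 (-1.99). It was larger for 4: Phlda1, Brip1 (-2.89), Epas1 (1.95) and Hif1a (0.55).

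Other groups depended on the starting group. Of all genes 24.8% were higher and 32% lower from Control, and 27.2% and 31.2% from NC_siRNA. Cytosolic ribosomal protein genes, matched by name and including some paralogs, were higher for 61 of 86 from Control with none lower (median 0.41), and lower for 65 with none higher from NC_siRNA (median -0.45). Nuclear genes of the respiratory chain were higher for 45 of 78 and lower for 2 from Control (median 0.39), against 8 higher and 34 lower from NC_siRNA (median -0.22). The proteasome list also changed sign, with medians of 0.22 from Control and -0.38 from NC_siRNA. Genes of mitosis had 13 of 27 lower and 7 higher from Control (median -0.26), and 26 lower with none higher from NC_siRNA (median -1.20). Homologous recombination and Fanconi genes had a median of -1.42 from NC_siRNA with 15 of 24 lower, and subunits and regulators of HIF one of 1.05 with 8 of 9 higher.

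**Figure D5:**
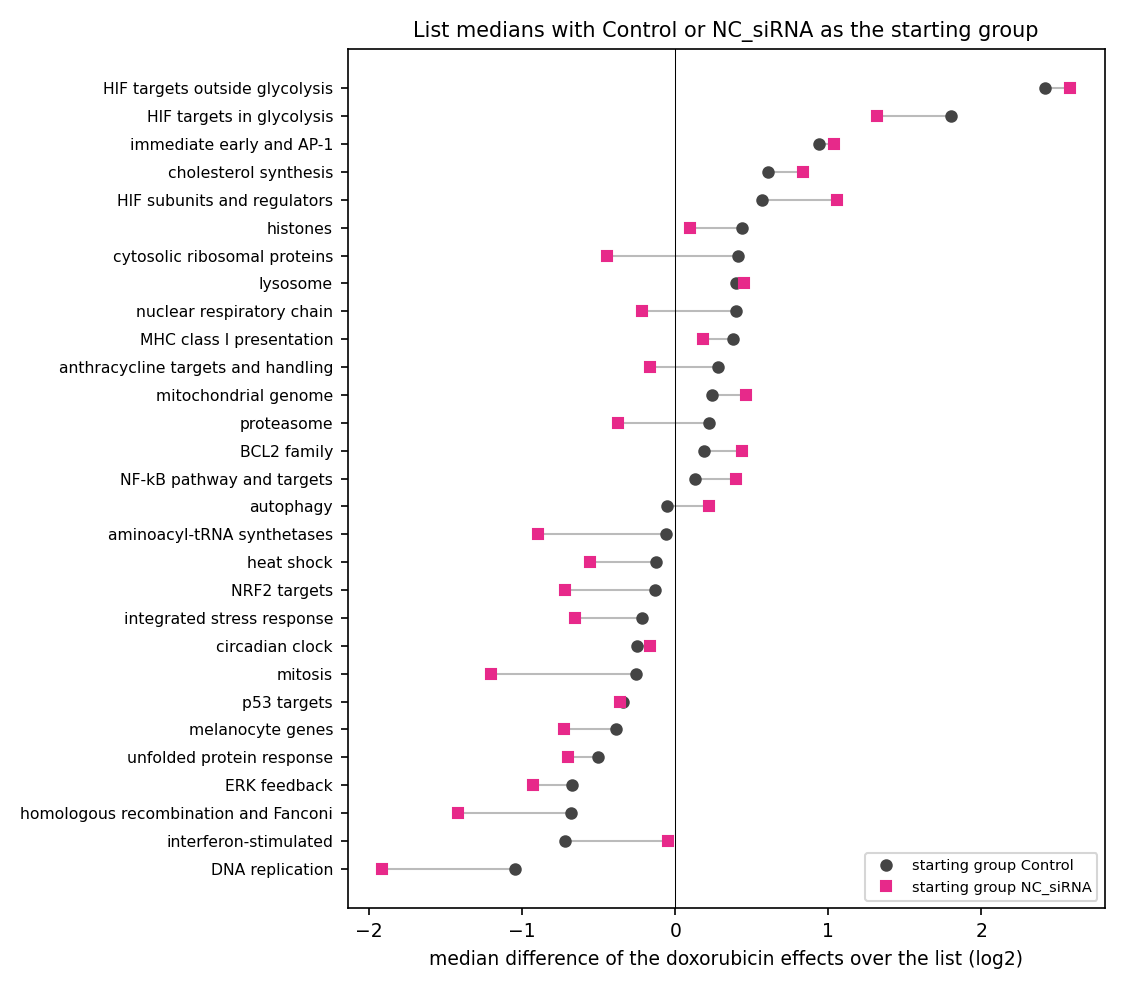
Median difference of the doxorubicin effects over each gene list (x axis, log2) with Control (circles) or NC_siRNA (squares) as the drug-free group without Hif1a siRNA; lines join the values of a list. HIF targets and DNA replication keep their sign, while ribosomal proteins, respiratory chain, proteasome, anthracycline targets and autophagy cross 0.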

How the data were processed

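RNA-seq was analysed for 12 libraries of B16.F10 cells, 3 in each of 4 groups that were assigned from the sample labels. Per the labels' protocols, RNeasy columns gave total RNA, from which TruSeq Stranded mRNA libraries were prepared. Per the submitters' processing notes, the tools were StringTie 2.1.3b, Bowtie2 2.3.4.1, HISAT2 2.1.0, Trimmomatic 0.38 and FastQC 0.11.7, with the mm10 build. The counter, its annotation and its strand setting are not given in the sources used here. The authors deposited raw read counts per gene, with no normalization applied. Each group's table lists its own genes, and the 349 genes listed for 1 to 3 of the 4 groups were not tested. Repeated gene IDs (24 to 28 per table outside Control), with identical values, were kept once. RefSeq gave symbols by gene ID for 1329 genes, and 20 have none; coordinates are RefSeq's (GRCm38.p6, the same build as mm10).

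The counts were fitted with edgeR 4.0.16 in R 4.3.3: group as the single term, library sizes scaled by TMM, and a robust quasi-likelihood F test, two-sided, with 8 residual degrees of freedom and Benjamini-Hochberg adjustment over 12823 genes. The low-count filter (at least 10 reads) removed 0 genes, and the common biological coefficient of variation was 0.097. CPM use the TMM-scaled library sizes and are not divided by gene length. Higher, lower and called mean an adjusted p under 0.05. Standard errors and 95% intervals come from the same fit.

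The comparison, the lists and the rule for named genes were chosen with earlier results of these data known. The rule took Hif1a; the 8 largest differences in each direction among called genes with at least 5 CPM in the highest group and called in all 12 fits without 1 library; 4 genes of each opposite class; and the 4 members of smallest adjusted p in the 3 HIF lists, in the list of p53 targets and in the lists with the 4 highest and the 4 lowest medians. Clone and prediction names were left out. Other genes named were chosen after their values were seen. By RefSeq spans 23 of the 59 named genes overlap another gene, 10 of them a tested gene. No 2 libraries agreed within sampling noise. Alternatives were other scalings, DESeq2 1.42.0, limma-voom (limma 3.58.1), a threshold of 0.01, other filters, a replicate block, all 15 libraries, NC_siRNA in place of Control, protein-coding nuclear genes only and leaving out each library. The procedure was tested on simulated data. Some genes that the naming rule selects are not reported here.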

Additional observations from a re-analysis of the deposited data

Results flagged for a closer look

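The effect of doxorubicin differed between cells with and without Hif1a siRNA, by a test of the difference itself, for 3175 genes that were higher and 4098 that were lower after the siRNA. The largest positive log2 differences by the naming rule were those of Ltbp1 (6.78), Proser2 (6.15), Selenbp2 (5.42), Selenbp1 (4.99), Tph1 (4.95), Fos (4.69), Ankrd37 (4.54) and Fosb (4.42). Ltbp1, Proser2, Tph1 and Fosb had 34 reads or fewer in each Hif1a_siRNA library, so the size of their differences is poorly set.

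The largest negative differences were those of Cmtr2 (-3.68), Cxcl10 (-3.56), Pprc1 (-3.39), Pigw (-3.26), Gemin4 (-3.22), Snora65 (-3.20), Eif1a (-3.13) and Snhg15 (-3.11). Among genes that moved in opposite directions in the arms, H2-T23 (4.04), Hilpda (3.76) and Neurl2 (3.40) rose after siRNA and fell without it. Ifit1 (-2.93), Gen1 (-2.31) and Zfp719 (-3.05) fell after siRNA and rose without it. Every library of a group was likewise under 40 reads for H2-T23 in Hif1a_siRNA and for Cmtr2, Pigw, Gemin4, Snora65, Ifit1 and Zfp719 in Control. Ifit1 had 8 to 10 reads there and 18 to 35 in Dox. From NC_siRNA the differences of Pigw (-1.18), Zfp719 (-1.29), Cmtr2 (-1.87), Pprc1 (-1.84) and Gemin4 (-1.99) were smaller in size by over 1.5 times. Whether transfection has a part in these differences was not tested with the drug, since no group had negative control siRNA and doxorubicin.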

How the results depend on the processing

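Counts of genes higher and lower stayed within 1.5 times 3175 and 4098 in every alternative run. They were 3710 and 3566 with RLE size factors, 3340 and 3917 with upper-quartile factors, 3725 and 3596 with DESeq2, and 3141 and 4095 with limma-voom. Similar totals do not show that the same genes were called. From NC_siRNA the totals were 3464 and 3962. Of 7242 genes called from Control, 4385 (60.5%) were then called the same way, 579 the opposite way and 2278 were not called. The replicate block gave 3108 higher and 4064 lower. Deviations of same-numbered libraries from their group means were weakly correlated (18 pairs, r from -0.154 to 0.053). With 3 libraries per group, that cannot show whether the numbers pair the samples. Leaving out 1 library gave 2904 to 3260 higher and 3818 to 4149 lower. At an adjusted p under 0.01, 296 genes were called that fell after siRNA and rose without it, against 456. Over 59 named genes, 1349 of 1353 values kept their direction and side of the threshold. The exceptions were Hif1a, called at 0.31 with RLE factors, 0.31 with DESeq2 and 0.55 from NC_siRNA, and Spred1, lost at -0.01 from NC_siRNA. Ifit1 had no value from NC_siRNA. Part of the 1349 was set by how genes were named. The largest differences and the opposite classes had to be called in all 12 fits without 1 library. List members were taken by smallest adjusted p. The run without a filter repeated the main one, since the filter removed 0 genes. The 1349 values thus do not measure how well calls hold over all genes.

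List medians that changed sign when NC_siRNA replaced Control, a check added after the data were seen, were those of autophagy (0.22), the proteasome (-0.38), anthracycline targets (-0.17), ribosomal proteins (-0.45) and the respiratory chain (-0.22). With RLE factors, autophagy (0.045) and the aminoacyl-tRNA synthetases (0.04) changed sign. The cause was not tested. Depth limits genes with few reads in at least 1 group, such as Ltbp1, Tph1 and Fosb in Hif1a_siRNA and Cmtr2 and Ifit1 in Control.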

Other observations

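Several gene groups held members with large differences in both directions. Among 15 genes of the NF-kB pathway and its targets 4 were higher and 5 lower, shares near the 24.8% and 32% of all genes, and from NC_siRNA 8 were higher and 4 lower. Tnfrsf9, a co-stimulatory receptor, had a difference of 4.12 and Tnfaip3, a feedback inhibitor of the pathway, 2.23, while Tnfaip2 (-1.22) and Birc3 (-1.21), an inhibitor of apoptosis, were lower. Of 17 circadian clock genes 7 were higher and 7 lower, against the same 24.8% and 32%. They ran from Bhlhe40, a repressor of the clock that is also a HIF target, at 2.92 to Tef, a PAR-domain factor, at -1.57. Of 17 heat shock genes 8 were higher and 8 lower, against 24.8% and 32%. From NC_siRNA 1 was higher and 10 were lower, against 27.2% and 31.2% of all genes, with a median of -0.56 against -0.12 from Control. Of 19 histone genes 8 were higher and 3 lower, against 24.8% and 32%, with linker histone H1f2 highest at 3.10. Most histone genes are close copies and many of their mRNAs lack a poly(A) tail, which the library kit selects for.

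Doxorubicin raised 15 of 15 mitochondrially encoded genes after siRNA and 14 of 15 without it, against 41.1% and 42.6% of all genes. In the difference 5 were higher and 3 lower, against 24.8% and 32% of all genes. From NC_siRNA 6 were higher and 1 lower, against 27.2% and 31.2%. Mt-Cytb, a subunit of complex III, was higher at 1.35, and the ribosomal RNAs mt-Rnr1 (-1.08) and mt-Rnr2 (-0.72) were lower. Of 22 integrated stress response genes the drug lowered 17 and raised 2 after siRNA, against 42.7% and 41.1% of all genes, and lowered 16 and raised 4 without it, against 40.6% and 42.6%. In the difference 8 were higher and 10 lower, against 24.8% and 32% of all genes, and from NC_siRNA 5 were higher and 14 lower.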
